A study of Camellia sinensis with 9 samples.

Results

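The miR162 and miR403 families of the tea plant (Camellia sinensis) were taken as every row of the deposited miRNA table whose name is numbered miR162 or miR403, with both arms of each hairpin. The rule found 7 of the 371 named rows, 3 of miR162 and 4 of miR403, and their 7 sequences were 7 of the 341 distinct sequences in the table. The study sequenced small RNA from flower, root and leaf to profile miRNAs across the organs, with 3 libraries per organ. The sample titles name no treatment. The flower libraries are named flower1, flower2 and flower45, the root libraries root13, root23 and root33, and the leaf libraries leaf1, leaf23 and leaf41. No genotype, cultivar or age is given in the sources used here. The labels do not say whether libraries came from separate plants, so every p-value measures the spread between these libraries, which may be technical.

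Plant miRNAs are cut from hairpin precursors by the Dicer-like enzyme DCL1 and act inside Argonaute (AGO) proteins. In Arabidopsis, miR162 targets the DCL1 transcript itself, miR403 targets AGO2, an Argonaute known for antiviral defence, and miR168 targets AGO1, the main carrier of miRNAs. These families thus act on the machinery that makes and uses small RNAs. Target transcripts in tea were not analysed here.

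The member sequences run from 5′ to 3′ with U for T and with the seed, bases 2 to 8, in capitals, because they show which names share a seed and which do not.
csn-MIR162b_3p: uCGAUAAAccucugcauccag
csn-miR162a_3p: uCGAUAAAccucugcauccagaa
csn-MIR162b_5p: gGACGCAGcgguucaucgauc
csn-MIR403b_3p: uUAGAUUCacgcacaaacucg
csn-miR403_3p: uUAGAUUCacgcacaaacucug
csn-MIR403b_5p: aGUUUGUGcgcgaguccaacc
csn-miR403a_3p: gUUCAAGAaaccugugggaga
The prefix csn- is left out from here on. MIR403b_3p has 21 bases and miR403_3p has 22. Their first 20 bases are identical, and the longer form has 1 extra U at position 21, counted from the 5′ end. The longer miR162a_3p holds all 21 bases of MIR162b_3p and AA after them. miR403a_3p shares its seed with no other sequence of the table. It matches MIR403b_3p at only 4 of 21 positions, and its reads stand a second time under the name miR396h_3p.

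Counting each sequence once, the counts totalled 876770 to 1073284 in the flower libraries, 369605 to 662023 in root and 476517 to 530334 in leaf. Levels are CPM, each count scaled to the same total of miRNA counts, after TMM scaling, in which 3 reads equal 3.57 to 6.49 CPM. Over the 129 sequences tested, log2 CPM of leaf41 correlated with leaf1 at r = 0.773 and with leaf23 at 0.810, where the other pairs of libraries of an organ ranged from 0.928 to 0.962. With root13, root23 and root33, leaf41 stood at 0.732, 0.777 and 0.791, so it was about as near to root as to leaf. The other leaf libraries stood at 0.599 to 0.670 with root. For the miR162, miR403 and miR168 sequences, a call that was gained or lost without leaf41 is given. Of the miR396 sequences described below, only the calls of miR396d_3p and miR396a_3p are given without leaf41. No pair of libraries agreed within counting noise.

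Of the 7 sequences, 6 had reads and 4 passed the low-count filter. Together they held 62867 reads over the 9 libraries, 0.609% to 1.51% of the counts of a library, and 99.6% of these reads belonged to MIR162b_3p, miR403_3p and MIR403b_3p. A sequence was called different between organs at an adjusted p under 0.05 by edgeR's quasi-likelihood test, with Benjamini-Hochberg adjustment over all 129 sequences. The test called 34.9% of these for root against leaf, 36.4% for flower against leaf and 42.6% for flower against root. Among the 4 tested members, it called 1 in each comparison. MIR403b_3p was lower in root than in leaf, and the sequence of miR403a_3p was higher in flower than in either other organ. The miR403a_3p sequence passed the filter through its flower reads alone. MIR162b_3p was not called in any pair.

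MIR162b_3p, the arm with the canonical DCL1-targeting sequence of miR162, had 33915 reads, the highest total of the members over all libraries, though both miR403 3p forms exceeded it in leaf1 and leaf23. It ranked between 15 and 25 among the sequences of each library. Its level was 7515 CPM in flower1, 4960 in flower2 and 12117 in flower45. In root13, root23 and root33 it was 3954, 7596 and 4194 CPM, and in leaf1, leaf23 and leaf41 it was 3593, 1952 and 4727 CPM. Every flower library lay above every leaf library, and the root libraries overlapped with both. The flower mean was 8197 ± 3627 CPM, the root mean 5248 ± 2037 and the leaf mean 3424 ± 1395 (SD over 3 libraries each).

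The log2 fold change of MIR162b_3p between flower and leaf was 1.26 ± 0.53 SE (95% interval 0.08 to 2.44), which missed the threshold after adjustment (adjusted p = 0.0923). The lack of overlap between flower and leaf gave an exact permutation p of 0.1 (two-sided), the smallest that 3 libraries against 3 allow. After adjustment over the 18 member comparisons of this kind it was 0.45, and 26.4% of the tested sequences lay higher in flower without overlap. Without leaf41 the log2 difference was 1.68 and passed (adjusted p = 0.0298), and without flower45 it was 0.30 (adjusted p = 0.694). Over all 16 alternatives it ran from 0.23, with every row kept, to 1.78, with an adjusted p from 0.0298 to 0.738. The difference was 0.62 ± 0.52 SE between root and leaf (interval -0.55 to 1.78) and 0.64 ± 0.52 between flower and root (-0.52 to 1.81), so neither a rise nor a fall was resolved. Over the alternatives the root and leaf value ranged from -0.25 to 0.80, and its sign was not settled. In whole organs, fewer cells that make a miRNA and fewer copies per cell cannot be told apart.

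The opposite arm MIR162b_5p was rare. It had 5, 17 and 15 reads in flower1, flower2 and flower45, 3, 8 and 6 reads in root13, root23 and root33, and 9, 10 and 1 reads in leaf1, leaf23 and leaf41. All organs overlapped, and the sequence did not pass the filter. Over all libraries the 5p arm made up 0.218% of the reads of both arms (exact Clopper-Pearson 95% interval 0.171% to 0.273%), or 458 3p reads for each 5p read. The arms were predicted to pair with each other over 16 base pairs at -22.6 kcal/mol. The 23-base miR162a_3p had 0 reads in every library, which allows up to 0.00028% to 0.000812% of the counts of a library at 3 counts. Intervals and these limits cover counting error only.

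**Figure D1:**
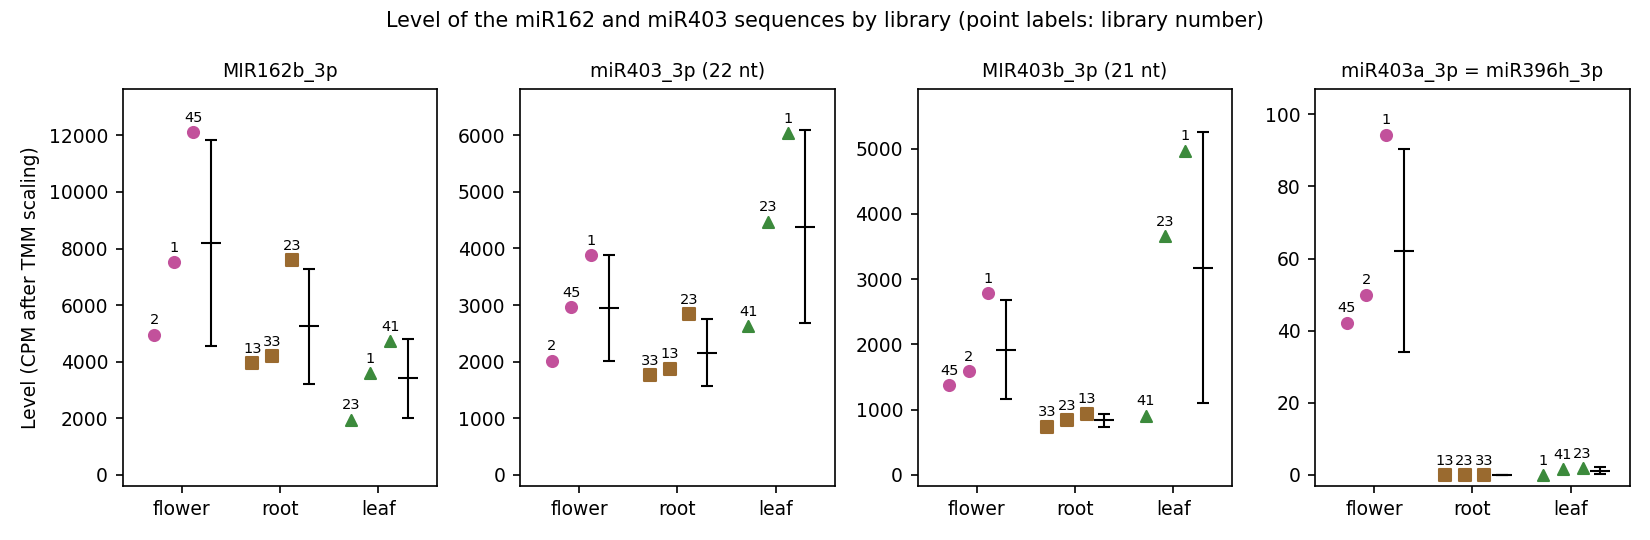
Level in CPM after TMM scaling (y axis, a scale of its own in each panel, linear) of the 4 tested sequences in flower, root and leaf. Each point is 1 library with its number, ordered by value within an organ, and the bar beside it is the mean ± SD of 3 libraries. The leaf41 point lies among the root libraries for MIR403b_3p, and the miR403a_3p sequence is near 0 outside flower.

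MIR403b_3p, the 21-base miR403 form, had 11000 reads. Its level was 2784, 1593 and 1379 CPM in flower1, flower2 and flower45. It was 938, 840 and 738 CPM in root13, root23 and root33, against 4969, 3656 and 909 CPM in leaf1, leaf23 and leaf41. All root libraries were low and close together, leaf1 and leaf23 were the highest of all 9 libraries, and leaf41 lay between root23 and root13. The flower mean was 1919 ± 757 CPM, the root mean 839 ± 100 and the leaf mean 3178 ± 2072 (SD over 3 libraries each).

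MIR403b_3p was lower in root than in leaf by edgeR's test, with a log2 fold change of -1.92 ± 0.66 SE (interval -3.41 to -0.44) and an adjusted p = 0.0497, just under the threshold. Root and leaf libraries overlapped. The exact permutation p was 0.2 (two-sided), and 0.48 after adjustment over the 18 member comparisons of this kind. Of all tested sequences, 13.2% were called lower in root, and the median log2 fold change of all 129 was 0.56. Without leaf41 the fold change was -2.42 and was called. The call was made under 3 of 4 scalings and in 8 of 16 alternatives, with a negative sign in all 16 (-2.99 to -1.59, adjusted p from 0.00238 to 0.15). It was lost when any of root13, root23, root33, flower1, flower2, leaf1 or leaf23 was left out.

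Between flower and root, no library of MIR403b_3p overlapped, and 31.8% of all tested sequences lay higher in flower without overlap. The exact permutation p was 0.1 (two-sided), the smallest possible, and 0.45 after adjustment over the 18 member comparisons of this kind. The log2 fold change of 1.19 ± 0.65 SE (interval -0.26 to 2.65) was not called (adjusted p = 0.165). It was called in 3 of 16 alternatives, among them the fit without leaf41 (1.37), with an adjusted p from 0.0398 to 0.369 over all of them. Flower and leaf overlapped, with a log2 fold change of -0.73 ± 0.64 SE (-2.17 to 0.71, adjusted p = 0.408).

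The 22-base form miR403_3p was the more abundant of the pair in all 9 libraries, with 17702 reads. It stood at 3883, 2017 and 2962 CPM in flower1, flower2 and flower45, at 1877, 2839 and 1759 CPM in root13, root23 and root33, and at 6036, 4476 and 2630 CPM in leaf1, leaf23 and leaf41. As with the shorter form, leaf1 and leaf23 were the highest libraries, and leaf41 lay below root23 and within the range of flower. No pair of organs was free of overlap.

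By edgeR's test miR403_3p was called in no pair. The log2 fold change was -1.02 ± 0.50 SE between root and leaf (interval -2.14 to 0.09, adjusted p = 0.127), -0.57 ± 0.49 between flower and leaf (adjusted p = 0.402; 0.038 with the authors' divisor as library size) and 0.45 ± 0.49 between flower and root (adjusted p = 0.451). The root and leaf difference was negative in all 16 alternatives (-2.05 to -0.92) and was called in 6 of them (adjusted p from 0.0258 to 0.231), including without leaf41 (-1.39). Neither miR403 form is thereby shown to differ from the other in its organ pattern.

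**Figure D2:**
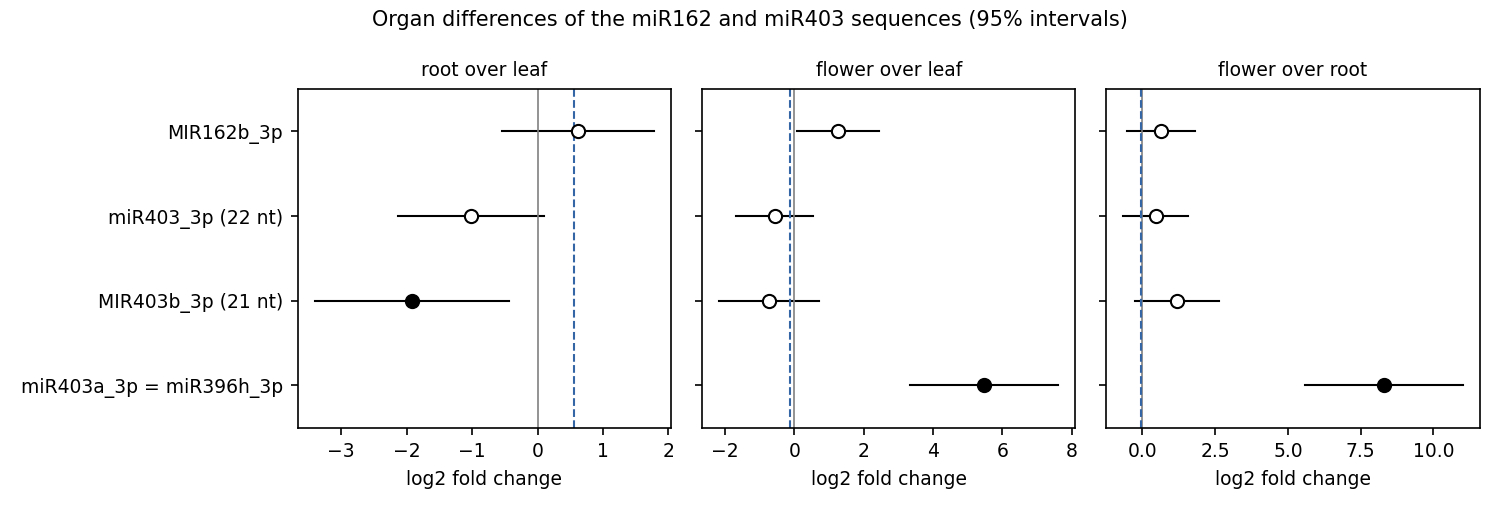
Log2 fold change (x axis, a scale of its own in each panel) of the tested sequences for root over leaf, flower over leaf and flower over root, with 95% intervals. Filled points had an adjusted p under 0.05, the dashed line is the median of all 129 sequences, and the miR403a_3p sequence is left out for root over leaf, where it had 0 and 2 reads. MIR403b_3p lies below 0 for root over leaf and the miR403a_3p sequence far above 0 in both flower comparisons.

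Both miR403 forms share a seed and differ by 1 base near the 3′ end. In Arabidopsis, miRNAs of 22 bases are known to start the production of secondary small RNAs more readily than those of 21 bases, so the ratio of the forms was described within each library, where no scaling between libraries enters. The ratios below were chosen after the counts were seen. There were 1.40, 1.27 and 2.15 reads of miR403_3p for each read of MIR403b_3p in flower1, flower2 and flower45. The ratio was 2.0, 3.38 and 2.38 in root13, root23 and root33, and 1.21, 1.22 and 2.89 in leaf1, leaf23 and leaf41. The ratio in leaf1 and leaf23 was below that of all other libraries, while leaf41 was the second highest of the 9. The mean ratio was 1.60 ± 0.48 for flower, 2.59 ± 0.71 for root and 1.78 ± 0.97 for leaf (SD over 3 libraries each), and every pair of organs overlapped (exact permutation p = 0.2 for flower against root, 0.3 for root against leaf and 1 for flower against leaf).

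Reads of MIR162b_3p were also set against the sum of both miR403 forms in the same library. There were 1.13, 1.37 and 2.79 MIR162b_3p reads for each miR403 read in flower1, flower2 and flower45. The ratio was 1.40, 2.06 and 1.68 in root13, root23 and root33, against 0.326, 0.240 and 1.34 in leaf1, leaf23 and leaf41. The miR403 forms outnumbered MIR162b_3p in leaf1 and leaf23 only, and MIR162b_3p led in the other 7 libraries. All root libraries lay above all leaf libraries, though leaf41 was close to root13 (exact permutation test, two-sided, p = 0.1, the smallest possible; 0.4 after adjustment over the 12 ratio comparisons made). Flower and leaf overlapped (exact permutation p = 0.2), as did flower and root (exact p = 1).

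**Figure D3:**
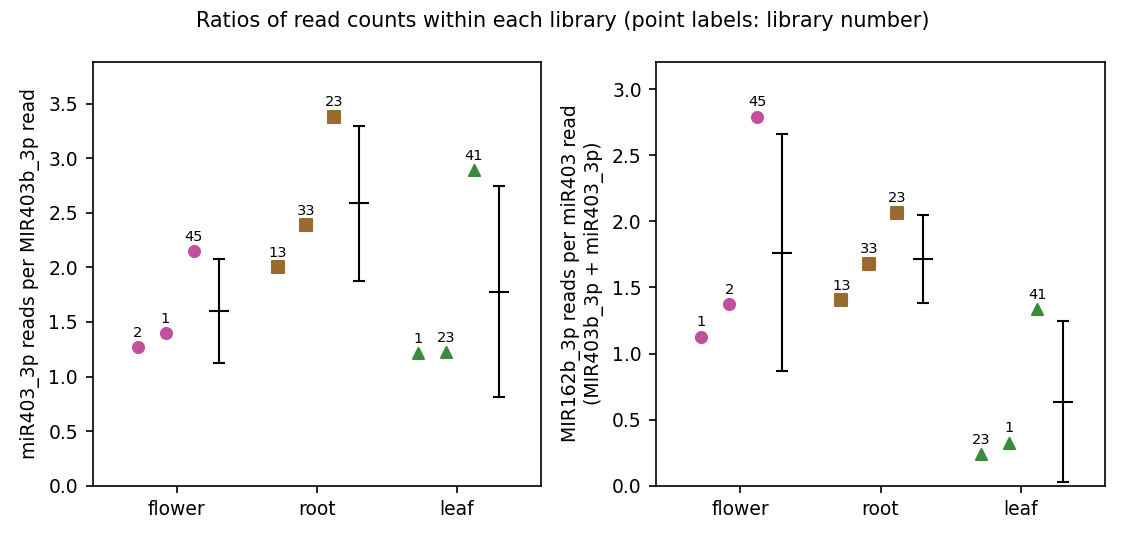
Reads of miR403_3p per read of MIR403b_3p (left y axis) and reads of MIR162b_3p per read of both miR403 forms (right y axis) in each library of flower, root and leaf. Points are libraries with their numbers, and bars are the mean ± SD of 3 libraries. In both panels leaf1 and leaf23 are low and leaf41 stands apart from them.

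The opposite arm MIR403b_5p had 2, 1 and 2 reads in flower1, flower2 and flower45, 1, 3 and 1 in root13, root23 and root33, and 7, 5 and 1 in leaf1, leaf23 and leaf41. At this depth no organ difference was detectable. It made up 0.209% of the reads of MIR403b_5p and MIR403b_3p together (exact Clopper-Pearson interval 0.132% to 0.313%). It was predicted to pair with MIR403b_3p over 15 base pairs at -22.0 kcal/mol, and equally with miR403_3p.

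The sequence listed as miR403a_3p and as miR396h_3p was read almost only in flower. It had 78, 42 and 31 reads in flower1, flower2 and flower45, 0 in each root library, and 0, 1 and 1 in leaf1, leaf23 and leaf41. All flower libraries were far above all others, and 151 of its 153 reads came from flower. Its mean level was 62.2 ± 28.1 CPM in flower (SD, n = 3). Against a floor of 3 counts per library, this was at least 11.2-fold higher than in root. The ratio of flower to leaf was 51.7, with a counting interval of 14.1 to 431 that rests on 2 leaf reads.

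By edgeR's quasi-likelihood test, the sequence was higher in flower than in leaf (log2 5.48 ± 0.92 SE, adjusted p = 0.00395) and than in root (adjusted p = 0.00132). Calls in this direction made up 17.1% of the tested sequences against leaf and 18.6% against root. These calls were made under all 4 scalings and in all 16 alternatives, without leaf41 included. The sequence passed the low-count filter through its flower reads alone. The calls and their repeats therefore restate these counts and are no separate support. With 0 and 2 reads in all, root and leaf were at or under the floor, and no fold is given between them.

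Because the reads cannot be given to 1 name, its letters were compared with the other 21-base sequences named miR403 and miR396, position by position and without a shift. The miR396 family is known for targeting growth-regulating factor genes. The nearest by this count were 3p arms of miR396, shown here to set them against the miR403 forms above. Bases that differ from miR403a_3p are in lower case and the shared ones in capitals.
miR396a_3p: GUUCAAuAAAgCUGUGGGAaA
miR396b_3p: GUUCAAGgAAgCUGUGGGAag
miR396d_3p: GcUCAAGAAAgCUGUGGGAag
The sequence shared by miR396a_3p and MIR396g-3p differed from miR403a_3p at 3 of 21 positions (G7U, C11G and G20A, counted from the 5′ end, with the base of miR403a_3p first). miR396b_3p differed at 4 (A8G, C11G, G20A and A21G) and miR396d_3p at 4 (U2C, C11G, G20A and A21G), whereas MIR403b_3p differed at 17. Much of miR396t_3p matches miR403a_3p only when shifted by 1 base, so it differed at 12 here. With that shift, the overlapping bases differ only at C11G and G20A, which the 3p arms shown also have. By this reading miR396t_3p is at least as near as the 3p arms shown. Shifted matches of other sequences were not counted.

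The predicted pairing of arms also differed between the names. The miR403a_3p sequence was predicted to form 7 base pairs at -4.1 kcal/mol with MIR403b_5p. It formed 18 base pairs at -25.6 kcal/mol with miR396b_5p, the abundant 5p arm of miR396. With MIR396q_5p it formed 21 base pairs at -39.1 kcal/mol, since bases 2 to 22 of that sequence, in capitals here, are its exact reverse complement.
MIR396q_5p: uUCUCCCACAGGUUUCUUGAACu
MIR396q_5p itself had 0 reads in all 9 libraries. By its letters the sequence is thus closer to miR396 3p arms than to the miR403 forms, against the label of miR403, and its reads are left out of the miR403 sums above.

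Other miR396 3p arms were therefore set beside it. miR396d_3p had 351, 99 and 147 reads in flower1, flower2 and flower45, against 38, 26 and 31 in root13, root23 and root33, and 1, 6 and 14 in leaf1, leaf23 and leaf41. It was higher in flower than in leaf by log2 4.33 ± 0.96 SE (adjusted p = 0.00735) and was not called between flower and root (2.07 ± 0.86, adjusted p = 0.0782). The sequence of miR396a_3p and MIR396g-3p averaged 873 ± 357 CPM over the flower libraries, 238 ± 73.7 over root and 136 ± 68.8 over leaf (SD), and was higher in flower than in leaf (log2 2.68 ± 0.70 SE, adjusted p = 0.0144) and than in root (1.87 ± 0.68, adjusted p = 0.0498). MIR396r_3p, miR396b_3p and miR396t_3p were called in no pair with all 9 libraries, and their values without leaf41 are not given here. In flower against leaf, MIR396r_3p stood at 0.49, and miR396b_3p and miR396t_3p had the opposite sign (-1.19 and -0.82). So flower was called higher for 2 of the 5 other tested miR396 3p sequences against leaf, where 17.1% of all sequences were, and for 1 of 5 against root, where 18.6% were. On the 5p side, the sequence of miR396a_5p and MIR396r_5p went the other way. It was called lower in flower than in leaf (log2 -2.25 ± 0.73 SE, adjusted p = 0.0359) and than in root (-3.02 ± 0.75, adjusted p = 0.00992). Its value without leaf41, its highest leaf library (6636 CPM), is not given here. miR396b_5p was called in no pair with all 9 libraries. The miR396d_3p call against leaf was made in all 16 alternatives (5.22 without leaf41). The miR396a_3p call against leaf was made in 9 of 16 (log2 1.83 to 3.23, adjusted p up to 0.0929), among them the fit without leaf41 (3.23). Its call against root was made in 6 of 16 (1.44 to 2.53, adjusted p up to 0.208), among them the fit without leaf41 (1.98). Leaving out any of flower1, flower2, leaf1 or leaf23 ended both miR396a_3p calls, and leaving out any root library ended the call against root.

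**Figure D4:**
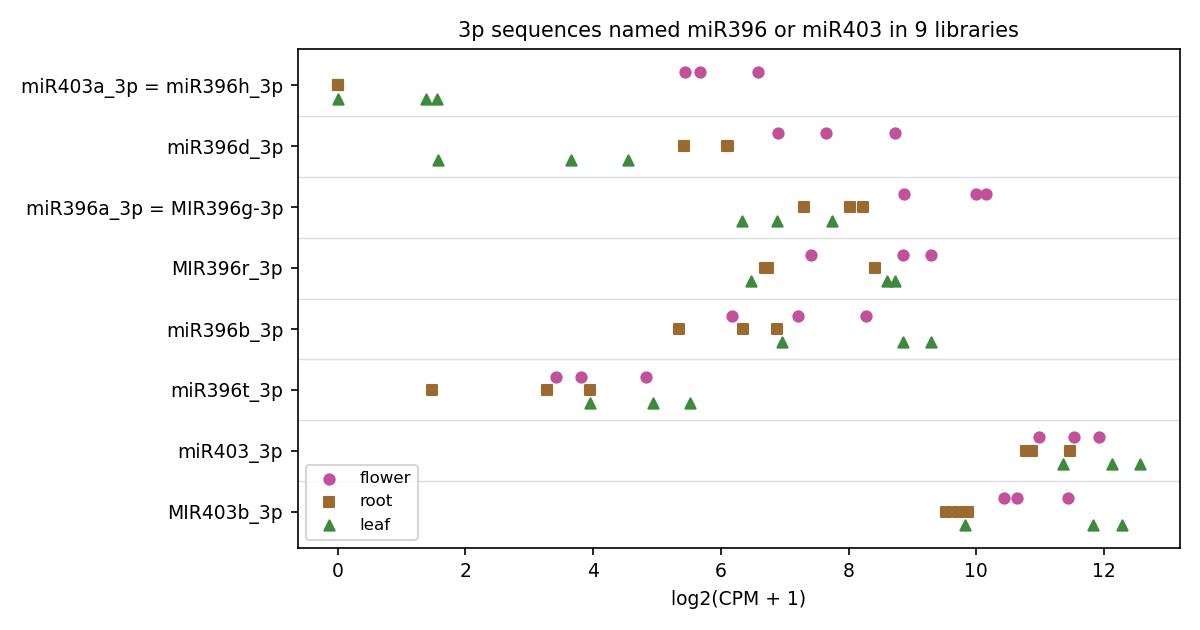
Level of 8 sequences named miR396 or miR403, as log2(CPM + 1) on the x axis, with 1 point per library, in flower, root and leaf. The miR403a_3p sequence, miR396d_3p and the miR396a_3p sequence have all flower points to the right, while for both miR403 forms leaf1 and leaf23 lie furthest right.

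miR162 and miR403 were also read with miR168, the AGO1 regulator, as a list of 18 sequences of the silencing machinery, of which 9 were tested. In root against leaf, 3 of the 9 were lower in root and 0 higher, where 13.2% of all 129 sequences were lower and 34.9% called in either direction. The median log2 fold change was -1.04 for the list and 0.56 over all sequences. Without the miR403a_3p sequence, which was at the floor in both organs, the list had 8 tested sequences, the same 3 calls and a median of -1.03. The called ones were MIR403b_3p, MIR168g_3p (log2 -1.69 ± 0.35 SE, adjusted p = 0.00602) and miR168a_3p (-2.22 ± 0.54, adjusted p = 0.0139), and the miR168 pair are 3p arms, opposite to the arm known for targeting AGO1. The longer miR168a_3p holds all 21 bases of MIR168g_3p and 1 U after them, so the pair are length forms of the same arm and not separate list members in sequence. The main miR168 sequence, shared by miR168a_5p and MIR168f_5p, was not called (-0.84 ± 0.36, adjusted p = 0.0905). Nor was miR168b_5p, a form of the same arm and seed with the opposite sign (1.37 ± 0.55, interval 0.13 to 2.61, adjusted p = 0.0743). In flower against leaf and in flower against root, the miR403a_3p sequence, whose letters go against its miR403 name, was the only list member called. Without it, edgeR called 0 of the other 8 in either flower comparison, where 36.4% and 42.6% of all sequences were called. At an unadjusted p under 0.05 edgeR had 3 of these 8 for flower against leaf and 1 for flower against root. The share of all sequences at that threshold is not given here. DESeq2 called 2 and 3 of these 8 after adjustment, where it called 58 and 70 of all 276 sequences it tested. The median log2 fold change of these 8 by edgeR was -0.47 against leaf and 0.69 against root, beside -0.12 and -0.04 over all sequences. Without leaf41, miR403_3p joined the calls for root against leaf, MIR162b_3p those for flower against leaf, and MIR403b_3p and MIR168g_3p those for flower against root.

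For each member with reads in at least 3 libraries, the 3 tested sequences with the most similar levels were found by Pearson's r of log2 CPM over the 9 libraries. The libraries share depth and organ, so these values describe the pattern only. For MIR403b_3p they were MIR169k_3p (0.893), miR403_3p (0.874) and miR396b_3p (0.861). For miR403_3p they were miR396b_3p (0.907), MIR403b_3p (0.874) and miR172a_5p (0.818), so each miR403 form was second nearest to the other. For MIR162b_3p they were the sequence of miR167h_5p and miR167c_5p (0.872), that of miR166h_3p, MIR166o_3p and MIR845h-3p (0.765) and miR171h_3p (0.751). The miR403a_3p sequence was nearest to MIR171z_5p (0.931), miR171c_3p (0.928) and miR172f_3p (0.912), and stood at 0.227 with MIR403b_3p and 0.027 with miR403_3p. The rare MIR403b_5p was nearest to MIR391a_5p (0.895), miR172a_3p (0.864) and MIR1446a_3p (0.855). MIR162b_5p was nearest to MIR2111a_5p (0.865), MIR2111a_3p (0.822) and MIR482c (0.669), and stood at -0.036 with MIR162b_3p, its own opposite arm. Both 5p arms had few reads in every library, and the miR403a_3p sequence had 0 or 1 in each root and leaf library. Their correlations thus rest largely on low counts.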

How the data were processed

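The deposited table holds whole-number counts of reads per named miRNA in 9 libraries, which the authors did not normalise, per the file headers. Beside each count stands a score that the authors rounded to whole numbers and the header calls RPTM, without defining it. The score equals the count divided by 1 constant per library (2.11 to 2.25), and these constants served as an alternative library size. How reads were trimmed, aligned and counted, and against which genome, is not given in the sources used here. Blank rows (1, with no counts) were left out.

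Rows with the same sequence, reading T as U, hold the same counts and were joined, which left 341 sequences. The test was that of edgeR 4.0.16, run in R 4.3.3 (quasi-likelihood, TMM, filterByExpr by organ, organ as the only factor, 9 libraries in 1 fit, Benjamini-Hochberg adjustment at 0.05). The filter kept 129 sequences with 99.97% of the counts. SE is the size of the log2 fold change over the square root of F, and 95% intervals use it. Single values were compared with exact permutation tests (scipy 1.17.1). Arm pairing was predicted with RNAduplex (ViennaRNA 2.7.2). The edgeR fit for root against leaf was tested on simulated counts, with changes placed in root and no filter step. Alternatives were DESeq2 1.42.0, other scalings, no filter, all rows, 6 libraries, and each library left out. Named sequences were all members, rows of the same sequence, called list members, the 3 most similar patterns and rows named miR396. Members and lists were chosen with earlier results of these data known.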

Additional observations from a re-analysis of the deposited data

How the results depend on the processing

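At 369605 to 1073284 counts per library, the 5p arms had few reads and miR162a_3p none. Under the 4 scalings of the same 129 sequences, the median log2 fold change of all sequences lay between 0.09 and 0.56 for root against leaf, -0.52 and 0.46 for flower against leaf, and -0.34 and 0.63 for flower against root. With every row kept, which also changes the sequences tested, it was -0.34, -1.16 and -0.07 in these comparisons. The cause of the changes below was not tested.

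For root against leaf, 45 sequences were called, and 71 with DESeq2, which tested 276 sequences. Leaving out 1 library gave 25 to 80 for root against leaf (25 without root23 or leaf1, 28 without leaf23 and 80 without leaf41), 31 to 61 for flower against leaf (47 with all; 31 without flower2) and 38 to 71 for flower against root (55 with all).

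For root against leaf, 1 of 4 tested members was called, beside 45 of 129 over all sequences. With library totals as scaling it was 0 of 4 (51 of 129 over all). MIR403b_3p and miR403_3p were both called with every row kept (2 of 4 members, 50 of 155 rows over all). They were also called with no low-count filter (2 of 6, 65 of 276), with DESeq2 (2 of 6, 71 of 276) and with only 6 libraries (2 of 3, 38 of 118). Leaving out 1 library gave 0 to 2 members, where 25 to 80 of all sequences were called. For flower against leaf the member count was 1 of 4 (47 of 129 over all), and 2 of 4 with the authors' divisor (51 of 129). It was 1 to 2 without 1 library (31 to 61 over all), where MIR162b_3p joined without leaf41. For flower against root it was 1 of 4 (55 of 129 over all), and 2 of 4 with the authors' divisor (67 of 129) and with 6 libraries (70 of 129). It was 1 to 2 without 1 library (38 to 71 over all), where MIR403b_3p joined without leaf41.

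Of the silencing list, 3 of 9 tested were called for root against leaf, beside 45 of 129 over all sequences. The list count was 6 of 16 with no filter (65 of 276 over all) and 5 of 9 with every row kept (50 of 155 rows). It was 5 of 16 with DESeq2 (71 of 276) and 5 of 8 with 6 libraries (38 of 118). Without 1 library it was 1 to 5. It was 1 of 10 without root13 (31 of 137) and 1 of 9 without root23 (25 of 134). Without flower45 it was 5 of 9 (45 of 136). For flower against leaf the list count was 1 of 9 (47 of 129 over all). It was 2 of 9 with the DESeq2 size factors (50 of 129) and with the authors' divisor (51 of 129), and 3 of 9 with library totals (50 of 129). DESeq2 gave 3 of 16 (58 of 276), every row kept 4 of 9 (68 of 155 rows) and 6 libraries 4 of 10 (41 of 116). Leaving out 1 library gave 1 to 4. For flower against root the list count was 1 of 9 (55 of 129 over all). It was 5 of 9 with the authors' divisor (67 of 129), 4 of 16 with DESeq2 (70 of 276) and 2 of 9 with 6 libraries (70 of 129). Leaving out 1 library gave 1 to 3. MIR168g_3p was called lower in root than in leaf in all 16 alternatives and miR168a_3p in 14, the call being lost without root13 and without root23.

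Signs turned for values that were not called: miR403_3p, flower against leaf, stood at 0.038 with the authors' divisor, and MIR162b_3p, root against leaf, at -0.24 with every row kept, -0.17 with no filter, -0.25 with 6 libraries and -0.23 to 0.80 without 1 library. No paired analysis was possible because any 2 organs share at most 1 library number.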

Other observations

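Within each library, MIR162b_3p was also set against the main miR168 sequence, that of miR168a_5p and MIR168f_5p, a ratio chosen after the counts were seen. The libraries flower1, flower2 and flower45 held 28.4, 16.9 and 25.2 MIR162b_3p reads for each 100 of miR168a_5p, root13, root23 and root33 held 23.1, 32.7 and 12.3, and leaf1, leaf23 and leaf41 held 6.97, 5.63 and 10.01. Every leaf library, leaf41 included, was below every flower and root library (two-sided exact permutation p = 0.1 against either organ, the smallest possible; 0.4 after adjustment over 12 comparisons). The miR403 forms against the same sequence overlapped between all organs (7.35 to 25.2 reads for each 100).

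The share of the 5p arm among MIR162b reads was 0.494% in leaf1 and 0.983% in leaf23, with an exact Clopper-Pearson interval of 0.226% to 0.936% and of 0.473% to 1.80%. In leaf41 it was 0.0338%, from 1 read (0.0009% to 0.188%). These intervals cover counting error only, not the spread between libraries, so no difference is drawn from them. The other 6 libraries lay between 0.0804% and 0.406%.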
